A study of Mus musculus with 503 samples.

Results

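The 10 genes described here belong to the Wnt pathway and cover its ligands (*Wnt5a*, *Wnt6*), its secreted inhibitors (*Wif1*, *Dkk2*, *Dkk3*, *Sfrp1*, *Sfrp2*, *Sfrp4*) and genes at its transcriptional end (*Lef1*, *Axin2*). They were taken by symbol from a table of counts per gene and single cell with 56701 gene rows, of which 34460 had a count in at least 1 cell used. All 10 had counts, and 9 of them reached 10 CPM (counts per 1e6 counts) in at least 1 of the 4 groups of cells. *Sfrp1* did not.

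All cells came from the spinal cord of *GLAST-CreERT2;R26R-tdTomato;Pdgfrb-eGFP* mice (female by the sample labels, of both sexes by the study's general statement on sequencing) and were sorted 1 per well for Smart-seq3, which sequences whole transcripts. In these animals EGFP marks cells that use the *Pdgfrb* promoter (pericytes, fibroblasts around vessels and vascular smooth muscle cells, vSMCs), and tdTomato marks cells, and descendants of cells, in which a tamoxifen-inducible Cre under GLAST (*Slc1a3*) control had recombined the reporter, so a tdTomato- cell is either GLAST-negative or unrecombined. The 4 groups were uninjured tdTomato+EGFP+ (65 cells kept from plate 209 and 72 from plate 213), uninjured tdTomato-EGFP+ (46 and 60 cells), tdTomato+EGFP+ 3 days after a spinal crush injury (SCI; 88 cells from plate 211 and 34 from plate 215) and tdTomato-EGFP+ 3 days after SCI (58 and 45 cells), 468 cells in all. The sample labels give 3 days and the text on the whole series gives 5 days, and the labels were followed.

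No label names an animal, so each group counts as 1 sample, and no test or replicate error can be given for any difference. The spread shown instead is that between plates: plates 209 and 213 held uninjured cells and plates 211 and 215 injured cells, and both sorted populations lay on every plate. Injury and plate therefore cannot be told apart. Summed counts ranged from 25645409 to 38406035 per group, and the 34 injured tdTomato+ cells of plate 215 were shallow (median 14770 counts per cell, against 182124 to 328802 in the other 7 combinations of plate and population). Intervals in brackets are exact 95% Poisson intervals of summed counts and cover counting error only; since a few cells can hold most counts of a gene, the plates usually lie farther apart than these intervals. A sum over cells cannot by itself tell fewer positive cells from less RNA per cell, so the number of cells with a count is given beside it.

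Wnt proteins are lipid-modified secreted ligands that bind Frizzled receptors with the co-receptors LRP5 and LRP6. In the canonical branch this keeps β-catenin from being destroyed, and β-catenin then acts with TCF/LEF factors on target genes, whereas other ligands, WNT5A the best known among them, mostly signal through receptors such as ROR2 without β-catenin. WIF1 and the SFRP proteins bind Wnt ligands outside the cell, and DKK proteins act on LRP co-receptors, with DKK3 the divergent member of its family. In the central nervous system, canonical Wnt signalling is known above all for its part in the growth and barrier properties of vessel endothelium.

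Uninjured tdTomato+ and tdTomato- cells differed mainly in the ligands and inhibitors. 4 of the 9 members that could be compared (10 CPM or more in the higher group) were at least 2-fold higher in tdTomato+ cells with the same direction on both plates (*Wnt5a*, *Wnt6*, *Wif1* and *Dkk2*), and 1 (*Sfrp4*) was lower. Among all 11198 genes compared, 4.31% were higher and 3.61% lower by the same rule. At 3 days after SCI, 2 of 8 members were higher in tdTomato+ cells (*Wif1* and *Dkk2*; 4.31% of 10631 genes) and 4 were lower (*Dkk3*, *Sfrp2*, *Sfrp4* and *Axin2*; 17.9%). Comparing injured with uninjured tdTomato+ cells, 1 of 9 members was higher (*Dkk2*; 10.8% of 11429 genes) and 3 were lower (*Sfrp2*, *Lef1* and *Axin2*; 34.3%). The share of lower members was close to that of all genes here, but all genes lower came to 18.9% with TMM and 16.5% with DESeq2 factors, with the same 3 members lower. In tdTomato- cells, 3 of 7 members were higher after injury (*Wnt5a*, *Dkk3* and *Sfrp4*; 9.52% of 11434 genes) and 3 were lower (*Sfrp2*, *Lef1* and *Axin2*; 17%).

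These shares depend on how groups are scaled, since the median difference over all genes compared was 0.0081 on the log2 scale between the uninjured populations, but -0.32 between the injured ones, -0.59 for injury in tdTomato+ cells and -0.20 for injury in tdTomato- cells. With TMM factors those 4 medians were -0.0036, 0.065, 0.13 and 0.099. The share of lower genes among all genes past 2-fold moved from 80.6% to 56.9% between the injured populations with TMM factors, from 76% to 47.5% for injury in tdTomato+ cells and from 64.1% to 43.6% for injury in tdTomato- cells (45%, 40.8% and 47.1% with DESeq2 size factors). Each member's own direction named in the paragraph above was the same under both scalings.

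**Figure D1:**
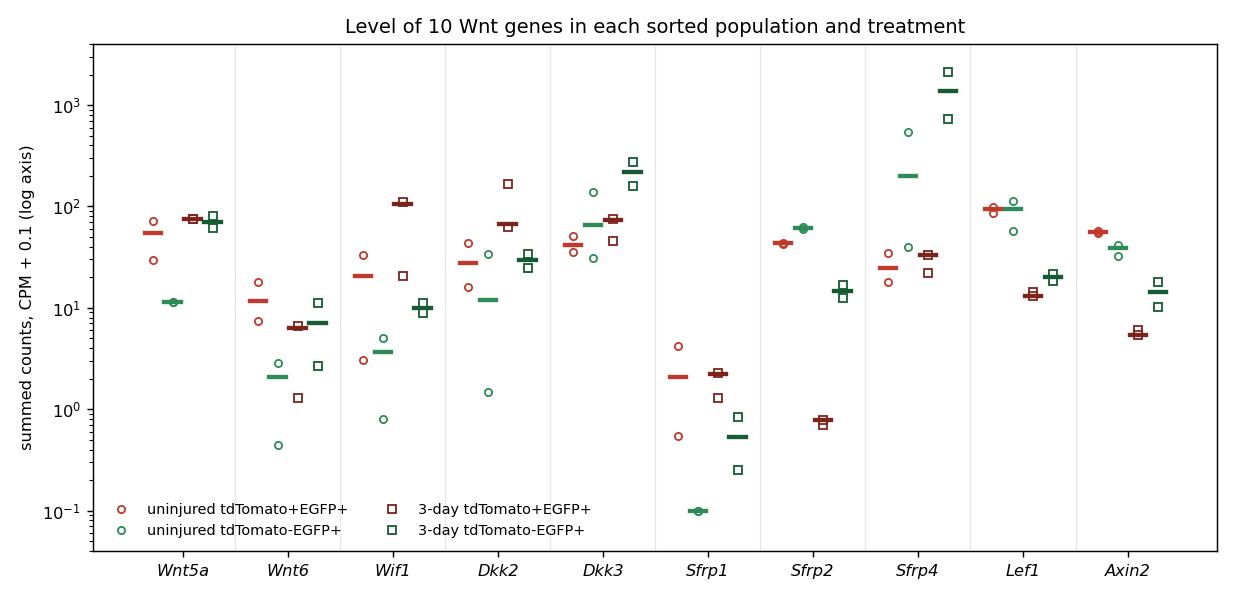
Level of the 10 genes (x axis) in the 4 groups, as CPM of summed counts plus 0.1 on a log axis. Bars are groups and open symbols are the 2 plates of each group (circles uninjured, squares 3 days after SCI, red tdTomato+, green tdTomato-); *Sfrp4* of injured tdTomato- cells lay at 2113 and 726 CPM on its plates, above every other group, and *Lef1* and *Axin2* of both injured groups lay below both uninjured groups.

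*Wnt5a* (chr14:28504750-28527448, forward strand, GRCm38, as are all positions below) was measured at 54.1 CPM in uninjured tdTomato+ cells [51.8 to 56.5], at 11.3 in uninjured tdTomato- cells [10.1 to 12.7], at 75.2 in injured tdTomato+ cells [72.2 to 78.3] and at 70.5 in injured tdTomato- cells [67.3 to 73.8]. By plate, the values were 29.8 and 71.6, 11.2 and 11.4, 75.2 and 75.1, and 60.6 and 79.4 CPM in that order. The uninjured tdTomato- cells thus stood below the other 3 groups on every plate, and the injured populations did not separate. On the log2(CPM + 1) scale the sort difference was 2.16 in uninjured cells (1.33 and 2.55 within plates) and 0.092 in injured cells (-0.080 and 0.31), and the injury difference was 2.53 in tdTomato- cells (2.31 to 2.72 over the 4 plate pairs, each 1 injured against 1 uninjured plate) against 0.47 in tdTomato+ cells (0.068 to 1.31), where TMM and DESeq2 factors put it past 2-fold (1.13 and 1.27) and leaving out cells rich in endothelial transcripts, described below, gave -1.16.

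The ligand was also found in more cells after injury. *Wnt5a* had a count in 42 uninjured tdTomato+ cells (30.7%), 16 uninjured tdTomato- cells (15.1%), 90 injured tdTomato+ cells (73.8%) and 70 injured tdTomato- cells (68%). With every cell thinned to 20000 counts and shallower cells left out, the shares were 20.5%, 9.78%, 58% and 36.3%. In uninjured tdTomato+ cells 1 cell held 33.4% of the *Wnt5a* counts, and without it the sort difference was 1.61, whereas in injured tdTomato+ cells the leading cell held 6.23%.

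*Wnt6* (chr1:74771892-74785322, forward) was scarce, with 11.7, 1.97, 6.17 and 6.94 CPM in the same order of groups and a count in 7, 2, 13 and 13 cells. A single cell held 63.2% of its counts in uninjured tdTomato+ cells, and without that cell the difference between the uninjured populations was 0.84 in place of 2.09, under 2-fold. With TMM or DESeq2 factors the difference was 2.02 or 1.98, but the level fell short of the 10 CPM needed for a comparison. Between the injured populations the plates pointed opposite ways (1.07 on plate 211 and -2.44 on plate 215). *Wnt6* is therefore better described by the cells that hold it, below.

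*Wif1* (Wnt inhibitory factor, chr10:121033960-121100650, forward) was higher in tdTomato+ cells in both conditions. It lay at 20.6 CPM in uninjured tdTomato+ cells (2.92 and 33.3 on the plates), 3.57 in uninjured tdTomato- cells (0.69 and 4.93), 105.1 in injured tdTomato+ cells (109.9 and 20.3) and 9.94 in injured tdTomato- cells (8.69 and 11.1). The sort difference was 2.24 (1.21 and 2.53) in uninjured and 3.28 (3.52 and 0.82) in injured cells. The difference between uninjured and injured tdTomato+ cells was 2.30 but did not keep its direction over plates: the 4 plate pairs gave 4.82, 1.69, 2.44 and -0.69, and without plate 211 the difference was -0.020. The number of positive cells was 14 before and 61 after injury (7.09% and 33% after thinning), and 5 cells held 63.1% of the counts of the injured group.

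*Dkk2* (chr3:132085292-132180304, forward) was also higher in tdTomato+ cells, at 27.4 against 11.9 CPM in uninjured cells (43.1 and 16.1 against 34.2 and 1.37 on the plates) and 67.4 against 29.3 CPM in injured cells (61.9 and 165 against 24.7 and 33.5). Uninjured plates overlapped between the populations and injured plates did not. The differences were 1.14 (0.33 and 2.85) and 1.17 (1.29 and 2.26), and that of uninjured cells was 0.73 without the leading cell. Both fell under 2-fold (0.16 and 0.94) with the cells rich in endothelial transcripts left out. After injury, 72 tdTomato+ cells were positive, against 20 before it (41% and 10.2% after thinning), and the level was higher by 1.27 (0.51 to 3.28).

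*Dkk3* (chr7:112116017-112159057, reverse) and *Sfrp4* (secreted frizzled-related protein 4, chr13:19623104-19632994, forward) had the opposite order, with the highest level in injured tdTomato- cells. *Dkk3* lay at 41.9, 65.6, 74.1 and 219 CPM in the order used above, and at 75.8 and 45.3 CPM against 160 and 272 CPM on the plates of injured tdTomato+ and tdTomato- cells, which did not overlap. It was counted in 94 injured tdTomato+ cells (77%) and 80 injured tdTomato- cells (77.7%), nearly equal shares, or 48% and 60.8% after thinning. The sort difference of injured cells was -1.55 (-1.07 and -2.56), and that of uninjured cells was -0.63 with plates of opposite sign (-1.45 and 0.21). For injury in tdTomato- cells the difference was 1.72, with pairs from 0.20 to 3.11 because the uninjured plates read 139.4 and 30.7 CPM.

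*Sfrp4* lay at 24.8, 201, 32.8 and 1386 CPM. On the plates the tdTomato- cells gave 542 and 39.5 CPM uninjured and 2113 and 726 CPM injured, while the tdTomato+ cells stayed between 17.9 and 34.3 CPM on all 4 plates. The sort difference was -2.97 (-3.95 and -1.10) in uninjured and -5.36 (-5.94 and -4.98) in injured cells, and the injury difference in tdTomato- cells was 2.78 (0.42 to 5.71). The counts were concentrated: 12 uninjured (11.3%) and 51 injured tdTomato- cells (49.5%) had a count, but 5 cells held 87.3% and 71.1% of them. Leaving out the leading cell changed the sort difference of injured cells to -4.89.

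*Sfrp2* (chr3:83766321-83774316, forward) was, in contrast, higher in both uninjured groups. It lay at 43.4 CPM in uninjured tdTomato+ cells (42.6 and 43.9 on the plates), 61.1 in uninjured tdTomato- cells (63 and 60.2), 0.68 in injured tdTomato+ cells (0.68 and 0.60) and 14.6 in injured tdTomato- cells (12.4 and 16.6). No plate of an injured group reached any plate of an uninjured group. It was counted in 52, 42, 7 and 22 cells, and the injury difference was -4.73 (-4.81 to -4.70) in tdTomato+ and -1.99 (-2.26 to -1.80) in tdTomato- cells. The injury difference was larger in tdTomato+ cells by 2.73 on the log2 scale (2.44 to 3.01 over plate pairs).

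*Sfrp1* (chr8:23411502-23449632, forward) had 76, 0, 66 and 11 counts in the 4 groups. The 0 in uninjured tdTomato- cells allows up to 0.112 CPM (3 counts of the total, a limit on the upper side only), and the highest group, at 2.12 CPM, lay under the 10 CPM needed for a comparison.

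**Figure D2:**
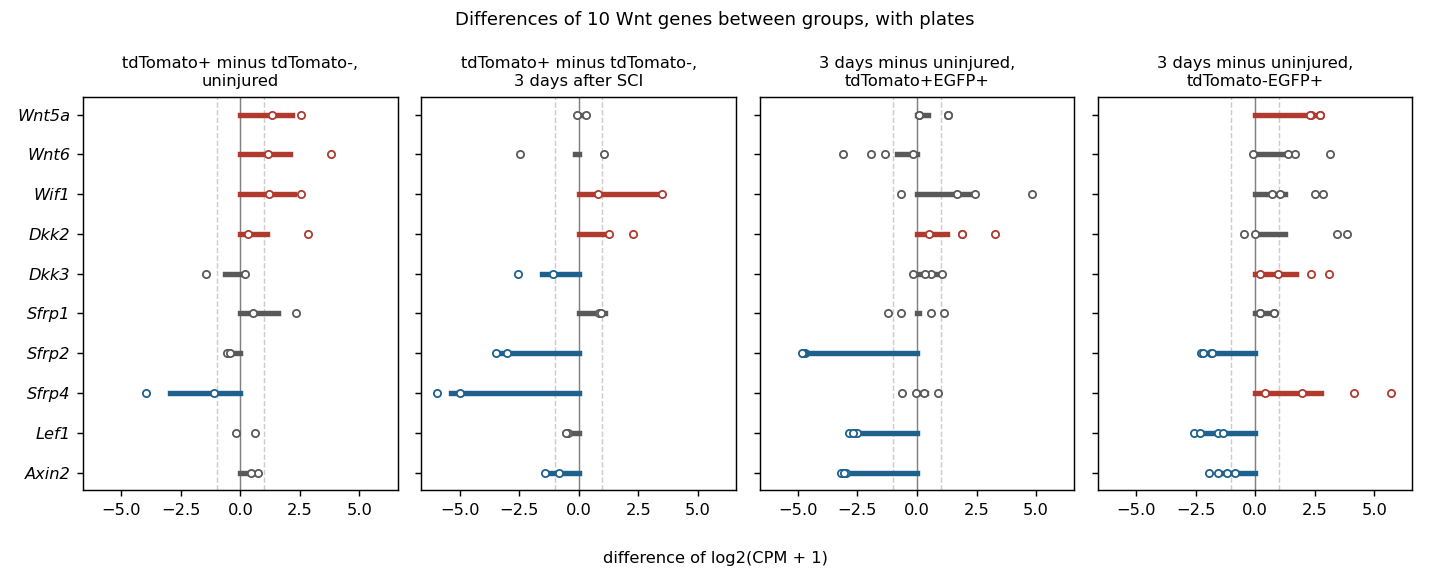
Difference of log2(CPM + 1) for each gene (rows) in 4 comparisons (panels); bars are group sums, open circles the 2 plates (sort) or 4 plate pairs (injury), dashed lines mark 2-fold, red and blue mark genes past 2-fold with every circle on the same side. The circles of *Sfrp2*, *Lef1* and *Axin2* lie close together on the negative side for injury in tdTomato+ cells (between -4.81 and -2.51), and those of *Wif1* span -0.69 to 4.82.

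Both genes at the transcriptional end of the pathway were lower after injury in both populations. *Lef1*, a β-catenin partner on DNA (chr3:131110471-131224356, forward), lay at 93.5 CPM in uninjured tdTomato+ cells (86.1 and 98.8 on the plates), 94.2 in uninjured tdTomato- cells (56.5 and 112.05), 13 in injured tdTomato+ cells (12.97 and 14.3) and 19.9 in injured tdTomato- cells (18.3 and 21.3). *Axin2*, a scaffold of the β-catenin destruction complex and a widely used readout of canonical signalling (chr11:108920349-108950783, forward), lay at 56.1 (54.6 and 57.2), 38.7 (32.4 and 41.7), 5.33 (5.30 and 5.96) and 14.1 CPM (10.2 and 17.7) in that order. For both genes the injured plates lay below all uninjured plates.

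The injury difference of *Lef1* was -2.75 (-2.84 to -2.51) in tdTomato+ and -2.19 (-2.55 to -1.36) in tdTomato- cells, and that of *Axin2* was -3.17 (-3.21 to -3.00) and -1.39 (-1.94 to -0.84). Shares of thinned cells with a *Lef1* count were 54.3% and 52.2% in the uninjured and 21% and 20.6% in the injured populations. For *Axin2* they were 48% and 31.5%, then 8% and 18.6%. *Axin2* was thus the higher of the populations in tdTomato+ cells before injury, by 0.52 (0.45 and 0.73), and the lower after it, by -1.26 (-1.43 and -0.83), although the latter came to -0.93 with TMM factors and -0.80 with DESeq2 size factors, under 2-fold.

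Since *Lef1* and *Axin2* were both lower after injury over all cells of each population, the bases upstream of their starts are shown. Promoter windows from RefSeq (GRCm38.p6, as for all 9 windows) matched 6 of the 10 genes. Each line gives the 250 bases before a start, on the forward strand (chr11:108920099-108920348 for *Axin2*, chr3:131110047-131110296 for the first of 4 *Lef1* starts), with the 5 letters CTTTG at the centre of the TCF/LEF recognition sequence, or CAAAG on the other strand, in capitals.
Axin2: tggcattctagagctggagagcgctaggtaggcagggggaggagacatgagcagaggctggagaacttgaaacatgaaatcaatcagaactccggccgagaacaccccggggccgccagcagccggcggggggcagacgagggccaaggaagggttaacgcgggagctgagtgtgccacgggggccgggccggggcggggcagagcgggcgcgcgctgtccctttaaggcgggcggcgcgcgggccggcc
Lef1: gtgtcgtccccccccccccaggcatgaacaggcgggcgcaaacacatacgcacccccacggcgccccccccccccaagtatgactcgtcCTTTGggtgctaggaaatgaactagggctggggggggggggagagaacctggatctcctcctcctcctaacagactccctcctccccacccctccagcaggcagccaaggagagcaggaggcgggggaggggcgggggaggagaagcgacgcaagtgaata
These letters occur in 48.6% of the 32851 windows of the genome, once here for *Lef1* and not in the window of *Axin2*. The longer form CTTTGA, on either strand, is in 13.8% of all windows and in neither of these 2. Of the other *Lef1* starts, the window of the fourth holds CTTTG 3 times and CTTTGA 2 times, and the others hold CTTTG 2 times and 1 time. The match is a description of the letters only.

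A further measurement belongs beside *Lef1*, *Axin2* and *Sfrp2*. The sorted cells carried endothelial transcripts, and these moved with injury in the same way: the summed level of 5 endothelial genes (*Pecam1*, *Cldn5*, *Cdh5*, *Flt1*, *Kdr*, all 5 detected in every group) was 3635 CPM in uninjured tdTomato+ cells (3242 and 4182 on the plates) and 3947 in uninjured tdTomato- cells, against 345 and 1423 CPM in the injured populations. Cells with 1000 CPM or more of these genes numbered 100 and 73 among uninjured and 2 and 24 among injured tdTomato+ and tdTomato- cells. The 34 cells removed beforehand for *Pecam1* above *Pdgfrb* had *Lef1* at 149.5 CPM and *Axin2* at 72.7 CPM, levels above all 4 groups. *Sfrp2* of these removed cells, at 36.03 CPM, lay under the uninjured tdTomato+ and tdTomato- groups (43.4 and 61.1 CPM) and above the injured groups.

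*Lef1* counts of uninjured cells lay mostly in cells with endothelial transcripts: of 95 tdTomato+ and 65 tdTomato- cells with *Lef1*, 74 and 55 had over 4000 CPM of these genes, 15 and 8 had 1000 to 4000 CPM, and 6 and 2 had less. Outside clusters 1 and 3, described below, uninjured cells with under 1000 CPM of endothelial genes had *Lef1* at 4.81 CPM (tdTomato+, 7 cells) and 0.25 CPM (tdTomato-, 20 cells), those from 1000 to 4000 CPM had 64.6 and 39.4 CPM (17 and 11 cells), and those over 4000 CPM had 142.8 and 139.7 CPM (77 and 57 cells). Injured tdTomato- cells had 24.9 CPM under 1000 CPM (46 cells) and 39.5 CPM over 4000 CPM (17 cells). Within the uppermost range, *Lef1* of tdTomato- cells was thus lower after injury by 1.80 on the log2 scale (87.1 and 163 CPM on the uninjured plates, 29 and 56.8 on the injured plates), while within the lowest range it was higher after injury. The lowest range held different cells before and after injury, with 14 of the 20 uninjured cells in cluster 7 and 45 of the 46 injured cells in cluster 4. With all cells of 1000 CPM or more left out, an alternative chosen after these values were seen, the injury difference of *Lef1* was 2.37 in tdTomato+ and 3.72 in tdTomato- cells, the reverse of the sign over all cells. The cells left there differed in cluster too: 26 of 37 uninjured tdTomato+ cells were in cluster 3 and 99 of 120 injured ones in cluster 1, and of tdTomato- cells 14 of 33 uninjured were in cluster 7 and 45 of 79 injured in cluster 4.

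*Sfrp2* followed the same division in part. In the uppermost range it lay at 58.1 and 78.9 CPM in the uninjured populations and at 12.3 CPM in injured tdTomato- cells, a difference of -2.59, and with cells of 1000 CPM or more left out its injury difference was -1.66 in tdTomato+ cells and 2.88 in tdTomato- cells. *Axin2* of uninjured tdTomato+ cells was not highest in the uppermost range, with 117.6, 44.6 and 52.7 CPM in the lowest, middle and uppermost range. In uninjured tdTomato- cells it was highest there, with 27.7, 19 and 49.5 CPM in the same order. Injured tdTomato- cells had *Axin2* at 15.7 and 25.3 CPM in the lowest and uppermost range. A single cell held 61.4% of the counts behind the 117.6 CPM (7 cells), which came to 58.8 CPM without it, and the 27.7 CPM came to 15.3 CPM without its leading cell. Without the cells of 1000 CPM or more, its injury difference was -3.50 in tdTomato+ and -0.66 in tdTomato- cells. The part of endothelial transcripts in these differences was not tested further, and injured tdTomato+ cells held too few such cells (2) for a value of their own.

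**Figure D3:**
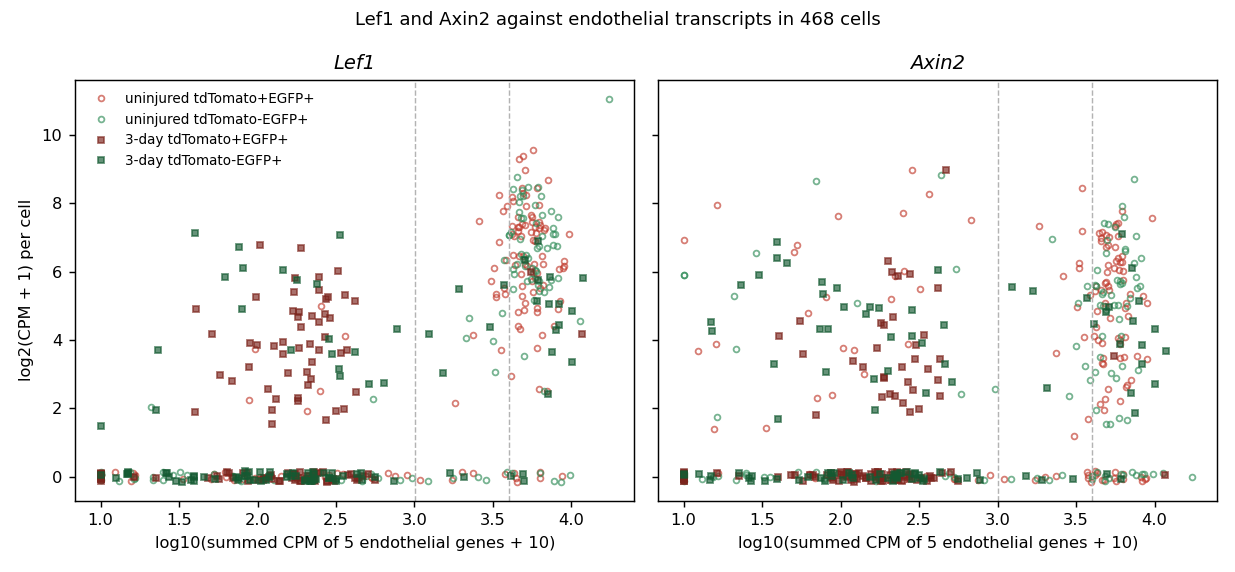
*Lef1* (left) and *Axin2* (right) per cell, log2(CPM + 1), against the summed level of 5 endothelial genes, log10(CPM + 10), in all 468 cells; open circles are uninjured and filled squares injured cells, red tdTomato+, green tdTomato-, dashed lines mark 1000 and 4000 CPM, and points are shifted slightly at random on the y axis. Most uninjured cells with *Lef1* sit right of both lines (74 of 95 tdTomato+ and 55 of 65 tdTomato- cells), and some lie between or left of them.

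The cells were clustered without the 10 genes and without the Wnt list used below, so that a cluster was not formed by them, and 7 clusters resulted. Cluster 3 (72 cells: 26 uninjured tdTomato+, 8 uninjured tdTomato-, 18 injured tdTomato+, 20 injured tdTomato-) had 8 of 8 perivascular fibroblast markers raised. It also had the highest sum of 5 pial and arachnoid markers of all 7 clusters (1316 CPM), with none of them raised and 1 of them, *Slc47a1*, among its leading genes beside *Myoc*, *Ptgds*, *Cldn11* and *Pi16*, so it is given by number only. Cluster 6 (33 cells) had 8 of 9 pericyte markers raised and is called pericyte-like. It had 1 of 5 endothelial markers raised, but these 5 summed to 2979 CPM in it, against 5353 and 5814 CPM in clusters 2 and 5 and 112.6 CPM in cluster 7. Cluster 7 (18 cells) had 4 of 6 vSMC markers raised and is called vSMC-like. Clusters 2 and 5 raised all 5 endothelial markers (cluster 2 with 61, 50, 1 and 5 cells in the order of groups above, and 7 of 9 pericyte markers, and cluster 5 with 44 cells and 3 of 9), cluster 4 (48 cells, 47 of them injured tdTomato-) raised 6 of 9 pericyte and 4 of 7 stromal fibroblast markers, and cluster 1 (10, 10, 100 and 16 cells, 36 of them under 20000 counts) raised 6 of 6 cycling genes, 5 of 7 stromal, 5 of 8 perivascular fibroblast and 3 of 5 pial and arachnoid markers. These 4 have no name here either.

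The ligands and inhibitors had different clusters. *Wnt6*, *Wif1* and *Sfrp4* were genes of cluster 3, which held 87.1%, 82.2% and 97.4% of their counts in 72 of the 468 cells. *Wnt5a* was spread over cluster 4 (129.1 CPM), cluster 3 (114.99 CPM) and cluster 1 (66 CPM) with 14.01 CPM or less in each of the others and no count in the 18 vSMC-like cells. *Dkk2* lay highest in cluster 1 (68.8 CPM, 72 cells) and *Dkk3* in cluster 3 (279 CPM, 53 of 72 cells).

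*Sfrp2* and *Lef1* were low in cluster 3, unlike *Wnt6*, *Wif1* and *Sfrp4*. *Sfrp2* read 100.7, 64.4 and 30.4 CPM in clusters 6, 2 and 5, 25.3 CPM in cluster 4 and 0.19 CPM in cluster 3, where 2 of 72 cells had a count. *Lef1* had 63.9% of its counts in cluster 2 and read 96.9 and 69 CPM in clusters 5 and 6, then 24.7 in cluster 4, 13.4 in cluster 1, 2.62 in cluster 3 and 0.43 in cluster 7. *Axin2* was more even, at 53.8, 48.2, 41.3 and 41.2 CPM in clusters 6, 2, 5 and 7, 30.9 in cluster 3, 13.3 in cluster 4 and 5.48 in cluster 1. Both clusters made up mostly of injured cells, 1 and 4, thus had the lowest *Axin2*.

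**Figure D4:**
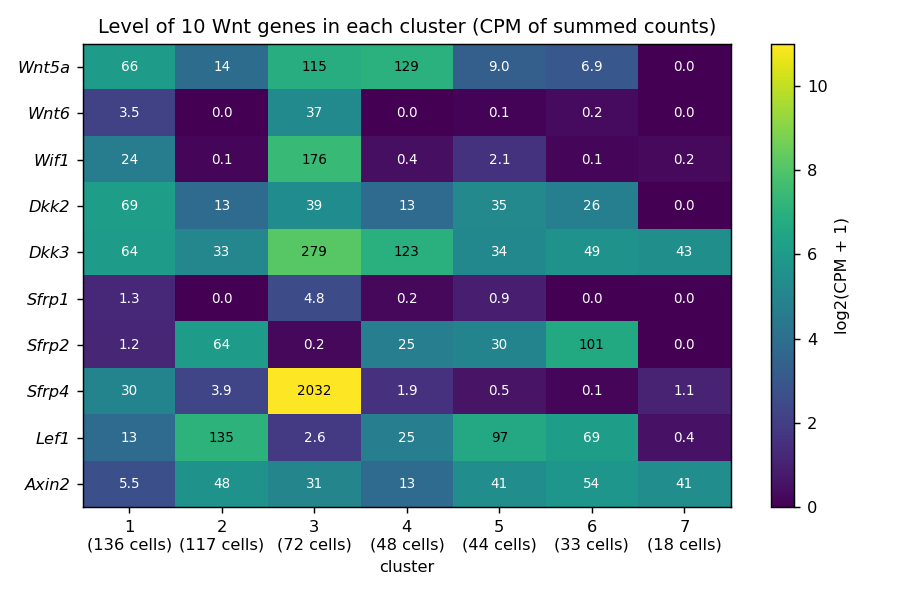
Level of the 10 genes (rows) in 7 clusters (columns, with cell numbers), as CPM of summed counts printed in each field and as log2(CPM + 1) in colour. *Wnt6*, *Wif1* and *Sfrp4* stand out in cluster 3 (36.9, 176 and 2032 CPM), *Lef1* and *Sfrp2* in clusters 2, 5 and 6.

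Within cluster 3 the sorted populations held different inhibitors. In the 18 injured tdTomato+ cells, *Wif1* was counted in 18 cells at 573 CPM (7.75 to 2451 CPM per cell, median 231), and in the 20 injured tdTomato- cells in 10 cells at 41.9 CPM. *Sfrp4* had the opposite pattern, with a count in 5 of the 18 tdTomato+ cells at 55.5 CPM and in 19 of the 20 tdTomato- cells at 6727 CPM (0 to 58738 CPM per cell, median 2990). On plate 211, *Wif1* read 607 CPM in tdTomato+ against 43.8 CPM in tdTomato- cells, and on plate 215, with only 4 tdTomato+ cells and 18 counts, 64.9 CPM [38.4 to 102.5] against 40.4 CPM [33.5 to 48.3], where the intervals overlap. *Sfrp4* was divided on both plates, at 59.1 against 11269 CPM and at 0 (which allows up to 10.8 CPM) against 3242 CPM.

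In uninjured cluster 3 cells *Sfrp4* was divided in the same way and *Wif1* less so. *Sfrp4* was counted in 5 of 26 tdTomato+ cells (99.1 CPM) and 7 of 8 tdTomato- cells (2612 CPM), and *Wif1* in 8 of 26 (87.1 CPM, with 15.3 on plate 209 and more on plate 213) and 1 of 8 (41 CPM). *Dkk3* went with *Sfrp4*, at 50.8 and 187 CPM in uninjured and injured tdTomato+ cells against 563 and 630 CPM in tdTomato- cells. Of the other Wnt genes, the inhibitor *Frzb* (245 and 236 against 11.7 and 3.62 CPM) went with tdTomato+ cells and the ligand *Wnt9a* (20.8 and 2.02 against 251 and 375 CPM) with tdTomato- cells.

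*Wnt6* read 50.4, 25.9, 25.1 and 28.4 CPM in uninjured tdTomato+, uninjured tdTomato-, injured tdTomato+ and injured tdTomato- cells of cluster 3, but the plates pointed opposite ways. The tdTomato+ against tdTomato- cells read 98.1 against 2.87 CPM on plate 209 and 27.3 against 49.9 on plate 213. On plates 211 and 215 they read 26.6 against 10.1 and 3.60 against 42.4 CPM. The 98.1 and 49.9 CPM each came from 1 cell, the 3.60 CPM was 1 count, and 1 cell held 88.1% of the counts behind the 42.4 CPM. Cells with *Wnt6* mostly held *Wif1* as well, in 5 of 5, 1 of 2, 9 of 9 and 6 of 8 cells in the order of groups above. *Wnt5a* was lower in injured than in uninjured tdTomato+ cells of this cluster (61.5 against 203 CPM, or 51.6 against 133.6 CPM without the leading cell of each), whereas the group sums differed in the other direction. Most injured tdTomato+ cells lay in cluster 1, where *Wnt5a* read 73.2 CPM in 75 of 100 cells.

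**Figure D5:**
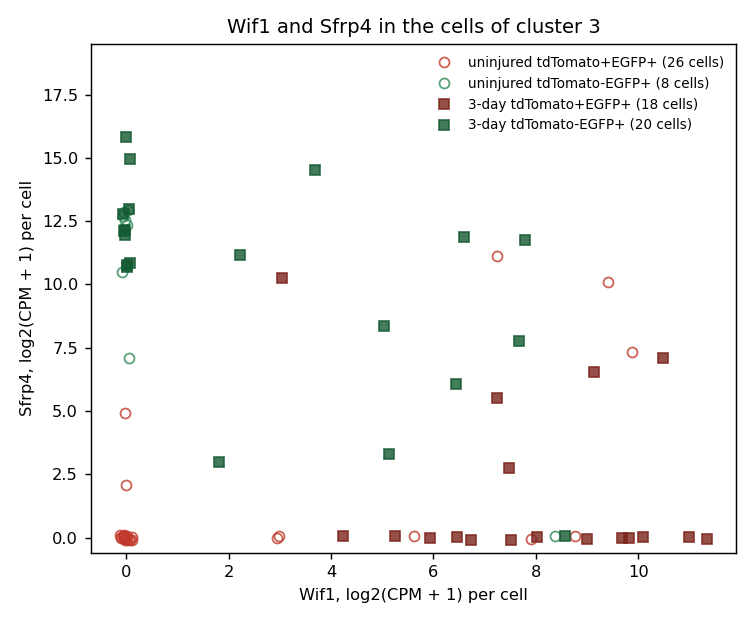
*Wif1* (x axis) against *Sfrp4* (y axis), log2(CPM + 1) per cell, in the 72 cells of cluster 3; open circles are uninjured and filled squares injured cells, red tdTomato+, green tdTomato-, shifted slightly at random to show overlap. Injured tdTomato+ cells lie along the lower edge (18 of 18 with *Wif1*, 5 with *Sfrp4*) and tdTomato- cells mostly in the upper part (19 of 20 injured and 7 of 8 uninjured with *Sfrp4*).

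*Axin2* within cluster 3 could be read apart from endothelial transcripts, since no cell there had over 530.6 CPM of them. It lay at 62.4 CPM in uninjured tdTomato+ cells (36.4 and 75.1 on the plates, 20 of 26 cells), at 9.28 CPM in the 8 uninjured tdTomato- cells, and at 6.74 and 7.04 CPM in injured tdTomato+ and tdTomato- cells (6 of 18 and 7 of 20 cells). The injured plates of tdTomato+ cells read 5.99 and 18 CPM, under both uninjured plates. The 18 CPM rests on 5 counts in 1 of 4 cells on plate 215 [5.85 to 42.0]. Its interval overlaps that of the 36.4 CPM on the uninjured plate 209 [29.8 to 44.1]. A single cell held 41.2% of the counts of uninjured tdTomato+ cells, and without it their level was 38.9 CPM. The other 3 groups read 0.56, 3.81 and 4.94 CPM without their leading cells, and the median endothelial level per cell was 74.4, 13.3, 166 and 36.6 CPM in the order of groups above.

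The genes whose levels were most like those of each member were read over 16 pools of cells (cluster by group, with at least 8 cells each), which share plates and clusters, so the correlations are descriptions. *Wnt6* was closest to *Itih2* (Pearson's r = 0.98), *Podn* (0.97) and *Qprt* (0.97), *Wif1* to *Moxd1* (0.95), *Efemp1* (0.95) and *Kng2* (0.94), and *Sfrp4* to *Tspan11* (0.97), *Lrrn4cl* (0.96) and *Crabp2* (0.96). *Lef1* was closest to *Arap3* (0.96), *St8sia4* (0.96) and *Degs2* (0.95). *Sfrp2* had *Grm7* (0.97), *Gm16243* (0.96) and *Flt1* (0.95), the last of them among the endothelial markers above. The leading correlations of *Axin2* (*Lrch1*, *Agap1* and *Pdzd2*, all 0.94), *Dkk3* (*Pgm3*, *Adam9* and *Emp3*, all 0.90) and *Wnt5a* (*Sdc1*, *Olfml3* and *Tgfbi*, all 0.89) were lower, and *Dkk2* had none above 0.77 (*Acy1*, then *Taf1d* and *Srprb* at 0.74). Among the members themselves, *Wnt6* with *Wif1* (0.91) and *Sfrp2* with *Lef1* (0.92) were the most alike.

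A wider list of 86 Wnt pathway genes, which includes the 10, gives the setting. Between the uninjured populations 7 of 54 list genes compared were past 2-fold higher in tdTomato+ cells and 5 lower (4.31% and 3.61% of all genes). The largest beside the members were *Frzb* (57.6 against 1.12 CPM, 4.79), *Ror2*, a WNT5A receptor (13.5 against 0.074 CPM, 3.76), *Lgr6* (-2.49), *Wnt9a* (-1.57), *Lgr4* (-1.55) and *Fzd8* (1.46). Between the injured populations 4 of 49 were higher and 14 lower (4.31% and 17.9% of all genes), led by *Wnt9a* (0.996 against 77.5 CPM, -5.30), *Frzb* (153.1 against 4.25 CPM, 4.88), the R-spondin *Rspo2* (0.48 against 39.6 CPM, -4.78), *Ror2* (2.49), *Fzd4* (-2.28) and *Kremen1* (-1.81).

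After injury, tdTomato+ cells had 3 of 49 list genes higher and 25 lower (10.8% and 34.3% of all genes). These 25 included 7 of 12 receptors and co-receptors compared, 6 of 9 cytoplasmic components, 3 of 3 membrane inhibitors and 4 of 6 common targets, and the median over the list was -1.03 against -0.59 over all genes. The largest were *Nkd1*, a target and feedback inhibitor (29.1 to 2.76 CPM, -3.00), the Wnt7 co-receptor *Reck* (-2.83), *Fzd6* (-2.62), *Notum* (-2.55), *Fzd4* (-2.50) and *Porcn* (-2.49). In tdTomato- cells 9 of 50 were higher and 14 lower (9.52% and 17% of all genes), with a median of -0.51 against -0.20. The largest were *Lgr6* (-2.90), *Reck* (-2.85), *Nkd1* (29.9 to 3.67 CPM, -2.73), *Myc* (6.43 to 47.6 CPM, 2.71), *Rspo2* (2.59) and *Notum* (-2.32). Of the 6 common targets compared, 4 were lower and 1 was higher, the same numbers as in tdTomato+ cells. Several of the list genes named in this paragraph were also counted in the 34 removed cells: *Fzd6* at 133.5 CPM, *Reck* at 117.4, *Notum* at 46.7, *Nkd1* at 26 and *Fzd4* at 19.6 CPM. The others were low or absent there, with *Porcn* at 8.86, *Myc* at 4.37, *Lgr6* at 0.46 and *Rspo2* at 0 CPM. The 26 CPM of *Nkd1* lay under the 29.1 and 29.9 CPM of the uninjured groups. In tdTomato- cells over 4000 CPM of endothelial genes, *Reck* read 126.1 CPM before and 23.2 CPM after injury and *Nkd1* 26.4 and 13.9 CPM. Unlike *Lef1*, *Nkd1* of uninjured tdTomato- cells was highest in the lowest range (88.02 CPM, 13 of 20 cells, against 1.12 CPM after injury), the range whose cells differed in cluster.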

How the data were processed

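Per the labels, each sample is 1 cell of the Smart-seq3 libraries of mouse spinal cord, sorted by tdTomato and EGFP. The authors deposited whole-number counts per gene and cell; the labels name build mm10, and the aligner and counter, and whether reads or unique molecules were counted, are not given in the sources used here, so levels of different genes were not compared. Columns of 503 cells matched the labels, and 1465 other columns were not used. The 92 spike-in rows (0.0314% of counts) were left out. Cells with 200 or more genes and under 20% mitochondrial counts were kept (502), and 34 with *Pecam1* over 1 and over *Pdgfrb* on the ln(1 + counts per 10000) scale were removed. Removing cells with *Gfap* or *Ptprc* over 1 took out 0. The 1200-gene upper limit in the study's methods was an alternative only, since it leaves 33 of the 468 cells.

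Counts were summed per group and per plate, scaled to CPM and compared as differences of log2(CPM + 1), which understate changes near 1 CPM. A gene was past 2-fold at an absolute difference of 1 or more with the same sign on both plates (sort) or all 4 plate pairs (injury), among genes of 10 CPM or more in the higher group. With 1 sample per group no test was run. Poisson and binomial intervals (95%) cover counting error only, and if the counts are PCR reads, these are not independent molecules. Clusters came from Seurat 5.3.0 (2000 variable genes, 20 principal components, resolution 0.5, after regressing out mitochondrial share, ribosomal share and the number of genes) with 96 genes kept out; raised means 0.5 or more above the remaining cells on the log2 scale and detection in at least 50% of a cluster's cells. Doublets were not called, and whether each well held 1 cell was not tested. Scaling factors came from edgeR 4.0.16 and DESeq2 1.42.0. Named genes were the 10 members, at most 6 further genes of the Wnt list per comparison by size, and the 3 genes most correlated with each member over pools of at least 8 cells and 500000 counts, among genes of 50 CPM or more in some pool. *Tcf7*, *Tnfrsf19* and *Apcdd1* were named beside these for cells over 4000 CPM of endothelial genes. The members and lists were chosen with earlier results of these data known. The comparison was tested on simulated Poisson counts with planted changes. These had no differences between plates or cells, so that test does not cover such spread. Alternatives are given at the end.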

Additional observations from a re-analysis of the deposited data

Results flagged for a closer look

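The sort difference of *Axin2* had opposite signs in the 2 conditions. It was 0.52 on the log2 scale in uninjured cells (0.45 and 0.73 within plates) and -1.26 at 3 days after SCI (-1.43 and -0.83), so both plates of each condition lay on the same side of 0. The difference between the conditions was not tested, since each group is 1 sample. Counts behind it were 2155 and 1041 in the uninjured and 166 and 362 in the injured tdTomato+ and tdTomato- cells.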

How the results depend on the processing

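The number of members past 2-fold stayed within 1.5 times its main value in 100 alternatives and moved further in 24. Between the uninjured populations, 4 members were higher, against 2 with a pseudocount of 10 CPM, 2 without the cell with the most counts, 2 without plate 213, 1 with a minimum of 50 CPM and 0 under the 1200-gene limit, and 1 was lower, against 2 with CPM averaged over cells, 2 without plate 213, 2 without cells of 1000 CPM or more of endothelial genes and 0 under the 1200-gene limit. Between the injured populations, 2 were higher, against 1 with a pseudocount of 10 CPM, 1 without plate 211 and 1 without those endothelial-rich cells, and 4 were lower, against 2 with a minimum of 50 CPM. For injury in tdTomato+ cells, 1 was higher, against 2 with TMM factors, 3 with DESeq2 size factors, 3 with CPM averaged over cells, 2 without plate 209, 213 or 215, 2 with no condition on plates and 2 under the 1200-gene limit, and 3 were lower, against 0 under that limit. For injury in tdTomato- cells, 3 were higher, against 5 without plate 211, and 3 were lower, against 0 without endothelial-rich cells. That alternative, chosen after seeing the data, kept 3 higher in tdTomato- cells, but only *Wnt5a* was shared (*Dkk3* 0.48 and *Sfrp4* 1.14 were no longer past 2-fold on all plates, *Sfrp2* and *Lef1* were), and in tdTomato+ cells the member higher was *Lef1* in place of *Dkk2* and those lower were *Wnt6*, *Sfrp4* and *Axin2*. It also reversed *Lef1* in both populations (2.37 and 3.72) and *Sfrp2* in tdTomato- cells (2.88). No other alternative reversed a member past 2-fold. The 1200-gene limit left 10, 13 and 10 cells and no injured tdTomato- cell, so 2 comparisons could not be made; otherwise the causes were not tested. No paired analysis was possible because no test was run; the sort differences within each plate stand beside the values above.

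*Sfrp1* is limited by its level, under the 10 CPM needed for a comparison, and *Wnt6* by single cells that held most of its counts in some groups. The shallow injured tdTomato+ cells of plate 215 limit every value that rests on that plate.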

Other observations

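Cells with a count of any of 19 Wnt ligands and of any of 13 secreted inhibitors were more frequent after injury. After thinning to 20000 counts per cell, a ligand was counted in 40.2% of uninjured tdTomato+ cells and 31.5% of uninjured tdTomato- cells, and in 76% and 63.7% of the injured cells. At least 2 ligands were counted in 11.8%, 8.70%, 27% and 21.6% of cells in the same order. A secreted inhibitor was counted in 65.4%, 55.4%, 87% and 76.5%.

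*Dkk3* was counted in 79 of 90 injured tdTomato+ cells with *Wnt5a* and in 53 of 70 such tdTomato- cells, against 77% and 77.7% of all cells of these groups, and in 9 of 42 and 8 of 16 uninjured cells with *Wnt5a*, against 19.7% and 19.8%. *Axin2* was counted in 80 of 95 uninjured and 19 of 54 injured tdTomato+ cells with *Lef1*, against 75.2% and 28.7% of all cells of these groups. These shares are at full depth and rise with the depth of a cell.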
